A study of Rattus norvegicus with 24 samples.

Results

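Of the 34523 rows of the deposited count table, 1978 are unannotated loci, stretches of the rat genome that carry reads and coordinates but no gene name. Each is called Locus here, followed by the number that its identifier in the table ends in. The loci described here are the 1260 whose raw counts summed to 240 or more over the 24 libraries, and 718 fell under that total. The 3 loci just inside the limit, Locus 1491, Locus 1923 and Locus 1080, had totals of 240, 240 and 241 counts. Just outside lay Locus 1625, Locus 700 and Locus 851, with 239, 235 and 233 counts. Since the total chose the loci, their levels are given as a description. A locus can reach the total through the groups where it is high and then has to differ from the others, so counts of changed loci are not independent of the choice either.

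The cells were a rat line of pulmonary microvascular endothelial cells (PMVEC), which line the smallest vessels of the lung, either knockout (KO) or wild type (WT) for Pfkfb3. Pfkfb3 is the gene of a bifunctional kinase and phosphatase that sets the level of a regulatory fructose bisphosphate, which activates glycolysis. The 8 groups of 3 libraries were KO hypoxia fructose, KO hypoxia glucose, KO normoxia fructose, KO normoxia glucose, WT hypoxia fructose, WT hypoxia glucose, WT normoxia fructose and WT normoxia glucose. Each sugar was given at 25 mM for 24 h, and below a condition is one of the 4 pairings of oxygen and sugar. No group had both sugars or neither, so an effect of fructose cannot be told apart from a lack of glucose. The labels give neither the oxygen level, the altered part of Pfkfb3, the number of clones, nor whether the 3 libraries of a group came from separate cultures. A p-value therefore measures only the spread between these libraries, which may be technical.

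Libraries held 14344010 to 23028807 counts. Pfkfb3 averaged 57.5 ± 4.85, 45.3 ± 2.85, 35.3 ± 3.60 and 39.5 ± 3.09 counts-per-million (CPM) in KO cells in hypoxia fructose, hypoxia glucose, normoxia fructose and normoxia glucose, against 150.2 ± 8.04, 70.0 ± 8.41, 116 ± 9.02 and 60.3 ± 5.41 CPM in WT cells (SD, n = 3 each). It was thus reduced in the KO libraries but not absent. Of 14 endothelial markers 13 were matched to the table, and their summed level was 239 to 333 CPM in KO and 58.3 to 127 CPM in WT libraries. Among them Cdh5, Kdr, Emcn, Cldn5 and Esam stayed under 1 CPM in every library. Leukocyte markers summed to 83.2 to 181 CPM in KO and 3.19 to 6.79 CPM in WT libraries, mostly through Itgb2, while Ptprc reached at most 0.225 CPM. Epithelial markers summed to 1618 to 2864 CPM in KO and 667 to 1174 CPM in WT libraries, nearly all of it Krt8. Of the others, Cdh1 reached at most 13.4 CPM, Epcam 4.89 CPM and Krt18 1.44 CPM. Fibroblast markers summed to 2363 to 4693 CPM in KO and 5502 to 18768 CPM in WT libraries, nearly all of it Col1a1 and Col1a2. Pdgfra, Dcn and Lum stayed under 1 CPM in every library. Lung capillary markers summed to 67.0 to 138 CPM in hypoxia and 8.77 to 28.4 CPM in normoxia, nearly all of it Apln, with the other 5 of the 6 under 1 CPM. The part of these differences in the results below was not tested, and in such bulk libraries fewer cells of a type and less RNA per cell cannot be told apart.

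A locus without a gene name can be a long non-coding RNA, an unlisted end of a known gene, a transcript that leaves a promoter in the direction opposite to the gene, or a copy of a mobile element. Rodent genomes hold many copies of endogenous retroviruses, whose Gag, Pol and Env proteins build the particle, copy and insert the genome, and form the envelope, and of LINE-1 elements, whose ORF2 protein copies and inserts the element. Such copies are normally kept silent by chromatin and DNA methylation, and some are read from their own long terminal repeats. In hypoxia, the HIF transcription factors bind the core motifs ACGTG and GCGTG.

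A pair of loci lay just ahead of microRNA genes on the same strand, and the mature microRNAs are shown because they identify the clusters. Locus 849 (Rnor_6.0 chr19:25311032-25318575, plus strand) ended 7 bases before Mir23a, 161 before Mir27a and 288 before Mir24-2. Locus 1953 (chrX:158145211-158147808, plus strand) ended 353 bases before Mir322 and 668 before Mir503. The sequences are those of RefSeq (GRCr8), 5′ to 3′, with the seed (bases 2 to 8) in capitals.
rno-miR-23a-3p: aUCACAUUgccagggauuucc
rno-miR-27a-3p: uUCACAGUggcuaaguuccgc
rno-miR-24-3p: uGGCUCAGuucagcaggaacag
rno-miR-322-5p: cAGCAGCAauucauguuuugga
rno-miR-503-5p: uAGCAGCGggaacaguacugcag
No pair of these seeds is identical. The seeds of miR-322-5p and miR-503-5p share their first 6 of 7 bases, and those of miR-23a-3p and miR-27a-3p their first 5.

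Promoters are shown for genes whose start faces a locus that rose in hypoxia in all 4 comparisons described below. Of 5 such genes 3 were matched in the RefSeq table (GRCr8, 250 bases before to 50 after the start): Ccbl1, listed there as Kyat1, a kynurenine aminotransferase, Irx2, a homeobox transcription factor, and Atg10, an autophagy enzyme. Capitals mark a match to ACGTG or GCGTG on either strand, and no window held overlapping matches.
Kyat1 (chr3:33871502-33871801, minus strand): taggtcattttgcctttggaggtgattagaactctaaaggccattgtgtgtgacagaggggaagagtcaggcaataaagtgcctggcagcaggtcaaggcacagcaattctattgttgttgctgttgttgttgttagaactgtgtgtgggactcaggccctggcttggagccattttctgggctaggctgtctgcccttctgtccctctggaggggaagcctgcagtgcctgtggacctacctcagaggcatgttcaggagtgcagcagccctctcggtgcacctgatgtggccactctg
Irx2 (chr1:32494881-32495180, minus strand): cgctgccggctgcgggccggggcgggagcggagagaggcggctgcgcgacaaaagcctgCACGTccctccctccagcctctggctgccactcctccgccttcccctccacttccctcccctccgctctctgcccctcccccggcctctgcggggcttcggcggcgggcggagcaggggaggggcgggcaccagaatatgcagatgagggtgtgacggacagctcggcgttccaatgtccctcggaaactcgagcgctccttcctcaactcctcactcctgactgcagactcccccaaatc
Atg10 (chr2:24133319-24133618, minus strand): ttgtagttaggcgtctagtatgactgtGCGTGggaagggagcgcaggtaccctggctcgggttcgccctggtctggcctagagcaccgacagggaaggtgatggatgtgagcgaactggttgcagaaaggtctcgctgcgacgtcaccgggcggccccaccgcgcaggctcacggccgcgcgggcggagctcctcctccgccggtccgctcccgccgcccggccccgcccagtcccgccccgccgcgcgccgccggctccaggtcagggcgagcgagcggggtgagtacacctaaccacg
The Irx2 window holds 1 ACGTG, the Atg10 window 1 GCGTG, and the Kyat1 window neither. Of 33469 promoter windows of the same length, 19.3% hold ACGTG, 29.7% GCGTG and 41.6% either, so a match is common.

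Summed, the 1260 loci made up 1.20 to 1.66% of a library's total. The share averaged 1.57 ± 0.073% in KO hypoxia fructose, 1.58 ± 0.070% in KO hypoxia glucose, 1.24 ± 0.030% in KO normoxia fructose and 1.34 ± 0.074% in KO normoxia glucose. In WT cells it was 1.58 ± 0.050% in hypoxia fructose, 1.46 ± 0.109% in hypoxia glucose, 1.29 ± 0.098% in normoxia fructose and 1.26 ± 0.044% in normoxia glucose (SD, n = 3 each). Without Locus 801, a retroviral locus described below, the 4 hypoxia groups still averaged 1.42 to 1.51% and the 4 normoxia groups 1.22 to 1.32%. Counts were uneven: the median locus had a total of 1141.5 counts, the highest 508918, and the top 10 held 29.5% of all counts of these loci. In all, 1156 loci had a count in each of the 24 libraries.

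Per kilobase of the table's own length, the median locus had 1.45 CPM, against 1.72 for the 190 annotated long intergenic RNAs (lincRNAs) and 13.5 for the protein-coding genes over the same total. The highest level was that of Locus 1655 (chr7:3051624-3053944, minus strand), at 957 ± 164 CPM per kilobase (SD over the 24 libraries). Its protein hit in the deposited table is ribosomal protein S26 of the small subunit. Locus 248, with a hit to ribosomal protein L38, followed at 581 ± 98.3, and Locus 394, with no hit, at 329 ± 58.9. Next came Locus 1513 at 87.9, Locus 317 at 83.8, Locus 240 at 65.7, Locus 8 at 63.8, Locus 48 at 55.4, Locus 587 at 53.5 and Locus 799 at 49.7. Rat ribosomal protein genes have many near-identical copies, and no source used here says how reads were split between them, so levels of Locus 1655, Locus 248 and Locus 240 are uncertain. Locus 8 and Locus 587 lie 876 and 6 bases from annotated 5.8S rRNA copies, and Locus 587 varied within a group, at 666 ± 491 CPM in KO hypoxia glucose.

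The 1260 loci were spread over the genome, with 1245 on chromosomes and 15 on scaffolds, 628 on the plus and 632 on the minus strand, and a median length of 1792 bases. The nearest annotated gene lay within 5 kb of 477 loci, 5 to 50 kb from 556 and farther than 50 kb from 212. Only 7 overlapped an annotated gene on the same strand and 2 on the opposite strand, and 6 lay on sequences with no annotated gene. Where loci and genes did not overlap, the median gap was 9695 bases. A divergent place, ahead of the nearest gene and on the opposite strand within 1 kb, held 124 loci, of which 59 lay within 100 bases of the gene's start. A gap on the same strand does not tell whether a locus is a separate transcript or an unlisted end of the gene.

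The deposited table gives a Swiss-Prot hit for 415 of the loci and a Pfam domain for 150. By the name of the hit, 97 matched a protein of a retrovirus or other mobile element, 49 a LINE-1 protein, 24 a zinc finger protein, 17 a ribosomal protein and 228 another protein. No hit was given for 844, and 1 had a Pfam domain only. Loci with a retroviral hit were long, with a median of 5008 bases against 1557 for those without a hit.

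A row was called changed where its adjusted p in edgeR's quasi-likelihood test was under 0.05 (Benjamini-Hochberg over all 14770 rows tested), and all 1260 loci passed the filter on low counts. KO and WT cells differed at 600 loci in hypoxia fructose (348 higher and 252 lower in KO), where 54.5% of all rows were called, 25.7% higher and 28.8% lower. They differed at 512 in hypoxia glucose (276 higher, 236 lower), where 48.4% of all rows were called, 24.3% higher and 24.1% lower. In normoxia fructose 527 were called (245 higher, 282 lower), with 53.6% of all rows (25.7% higher, 28% lower). In normoxia glucose 457 were called (241 higher, 216 lower), with 46.4% of all rows (22.7% higher, 23.7% lower). As shares of the 1260 loci these are 47.6, 40.6, 41.8 and 36.3%, in each condition under the share over all rows. Their median absolute log2 change was 0.68, 0.54, 0.61 and 0.52, against 0.45, 0.37, 0.44 and 0.37 over all rows. In hypoxia fructose 21.6% were higher and 14.3% lower in the lowest quartile of level, and 31.1 and 29.2% in the highest. A lower share called thus does not mean smaller changes, and the part of low counts in either was not tested. Across the 4 conditions, whose libraries are all distinct, 129 loci were higher in KO each time and 102 lower each time, or 10.2 and 8.10% of the loci against 10.4 and 13.4% of all rows.

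**Figure D1:**
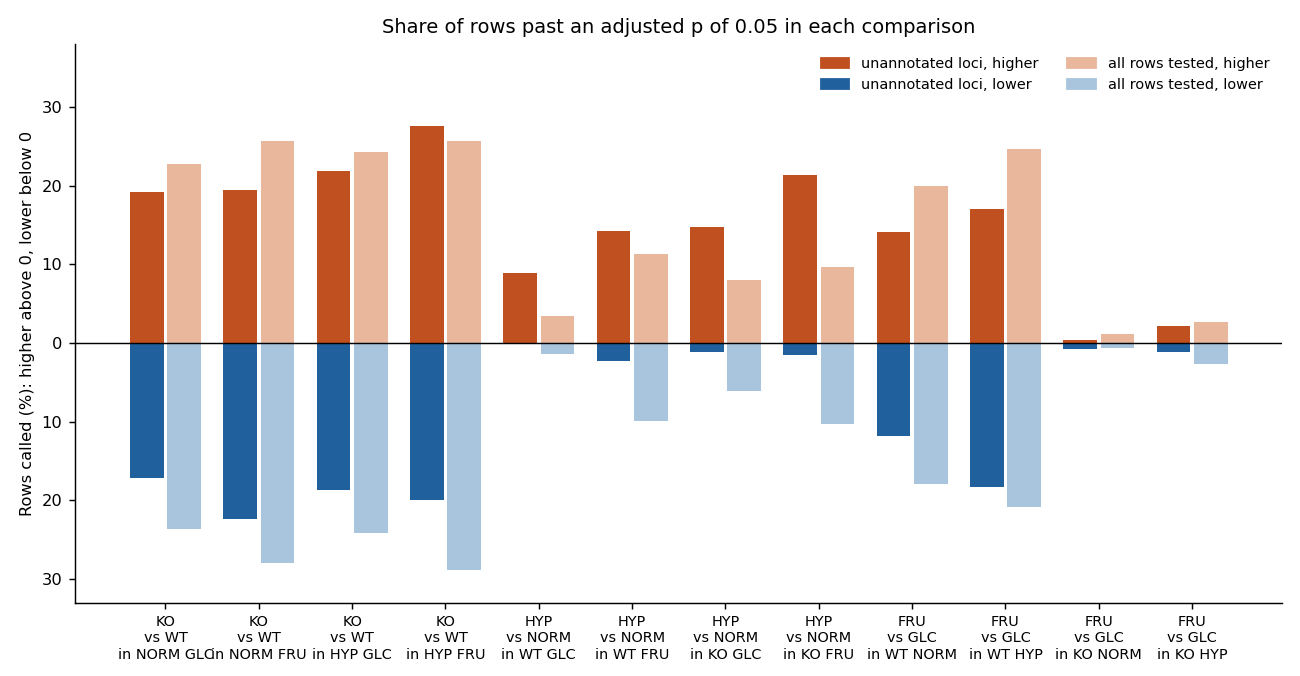
Percent of rows called changed in each of the 12 comparisons (higher drawn above 0, lower below), for the 1260 unannotated loci in dark and for all 14770 rows tested in light colours. In the hypoxia comparisons the loci called were mostly higher, at 8.89 to 21.3% of the loci against 0.159 to 2.30% lower. Of all rows 3.39 to 11.3% were higher and 1.42 to 10.3% lower.

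Several loci were near silent in one genotype. Locus 906 (chr19:15902116-15953805, minus strand, no protein hit) had 0 counts in all 12 WT libraries, and in KO cells 9.67, 9.38 and 11.5 CPM in hypoxia fructose, 7.99, 7.26 and 8.03 in hypoxia glucose, 11.2, 10.6 and 13.7 in normoxia fructose and 6.29, 11.1 and 12.3 in normoxia glucose. Over all KO libraries it held 2155 counts, at least 731.56-fold above a floor of 3 counts over the WT libraries. The 3 loci with 0 counts in all 12 KO libraries were weaker. Locus 174, 4294 bases downstream of SNORD64, reached 0.548 to 2.87 CPM in WT cells, Locus 341 0.487 to 2.32 CPM and Locus 400, 114 bases from AABR07036413.1, 0.647 to 2.0 CPM. These are at least 111.61-fold, 101.79-fold and 86.4-fold above the same floor over the KO libraries. Of all 1260 loci, 1096 reached 120 counts in both genotypes, 94 in KO cells only and 70 in WT cells only. The minimum total that chose the loci makes each of them reach 120 counts in KO cells, in WT cells or in both. Loci high in a single genotype could thus enter through that genotype alone. The counts describe the chosen loci, and no share over all rows is given to compare them with.

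Among the loci highest in KO relative to WT cells in all 4 conditions, Locus 1040 (chr2:113467276-113492876) had 10.5 to 15.2 CPM in the 12 KO libraries, with 1 count in 1 of the 12 WT libraries and 0 in the rest. Locus 1041 had 11.7 to 21.0 CPM in KO and 0 to 0.674 CPM in WT libraries, with log2 changes of 5.34 ± 0.483 in hypoxia fructose, 5.26 ± 0.477 in hypoxia glucose, 5.70 ± 0.503 in normoxia fructose and 5.70 ± 0.495 in normoxia glucose (SE). Locus 583 had 18.9 to 26.7 CPM in KO and 0.154 to 1.10 CPM in WT libraries. Its nearest gene Bend4, a BEN-domain protein gene 36308 bases away, differed far less, with log2 changes of 0.29, 0.35, 0.32 and 0.09 in that order, the last not past the threshold (adjusted p = 0.524). Locus 1549 had 16.1 to 22.7 CPM in KO and 0.122 to 0.866 CPM in WT libraries, 15396 bases downstream of Alkbh1, a nucleic acid demethylase gene that was called only in normoxia glucose (log2 0.39). Locus 910, Locus 1035 and Locus 314 were lower in level, at 1.46 to 5.27 CPM in KO and 0 to 0.239 CPM in WT libraries. Locus 1035, with a LINE-1 ORF2 hit, lies 3581 bases ahead of LOC688389, which was itself higher in KO, at 3.67 ± 0.741, 3.08 ± 1.11, 4.44 ± 0.827 and 4.12 ± 0.911 CPM in the 4 KO groups and at 0 to 0.101 CPM on average in the WT groups. KO and WT libraries did not overlap at any of these loci, which had been chosen for the size of that difference.

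The 8 loci lowest in KO relative to WT cells were taken from the 1064 loci with a mean log2 CPM of at least 0. Of these 8 loci 5 carry a retroviral hit, and a pair of the 5 counts as 1 element, described below. Locus 174, Locus 341 and Locus 400, which carry no hit, lay under that level and were left out. Their smallest fitted falls (log2 -6.91, -7.06 and -7.03) were larger than that of Locus 667. Over all 1260 loci 97 carry a hit to a retrovirus or other mobile element, as do 19 of the 102 lower in all 4 conditions. Locus 667 (chr16:229450-239013, plus strand, Pol hit) had 1.44, 1.69 and 2.52 CPM in KO hypoxia fructose, 1.20, 1.16 and 1.35 in KO hypoxia glucose, 0.182, 0.809 and 0.260 in KO normoxia fructose and 0.587, 0.209 and 0.218 in KO normoxia glucose. In WT cells it had 225, 221 and 239.9 CPM in hypoxia fructose, 104, 139 and 178 in hypoxia glucose, 51.1, 65.0 and 63.2 in normoxia fructose and 26.0, 50.1 and 33.0 in normoxia glucose. The log2 changes were -7.04 ± 0.287, -6.75 ± 0.297, -7.23 ± 0.361 and -6.69 ± 0.384 in the same order of conditions, with no overlap between genotypes. The 8 loci had been chosen for the size of that difference, so the lack of overlap only describes them. Locus 359 (no hit) had 0.0623 to 0.841 CPM in KO and 24.9 to 107 CPM in WT libraries. Locus 1217, with a Pol hit, had 0.0520 to 1.50 CPM in KO and 17.3 to 38.3 CPM in WT libraries, and Locus 1407, also with a Pol hit, 0.823 to 5.56 CPM in KO and 11.1 to 102 CPM in WT libraries.

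Locus 442 (Pol hit) and Locus 480 (Env hit) lie on opposite strands of overlapping spans about the same place on chromosome 13, so they count as 1 element. Locus 442 had 0.0484 to 0.808 CPM in KO and 7.32 to 42.7 CPM in WT libraries. Locus 1773 had 0.420 to 1.53 CPM in KO and 7.09 to 40.7 CPM in WT libraries. Locus 1634, with no hit, had 2 counts in 1 of the 12 KO libraries, 0 in the other KO libraries, and 2.48 to 5.36 CPM in WT libraries. Over the 24 libraries the rows most like Locus 906 in log2 CPM were Locus 1040 (Pearson r = 0.996), Wfdc6a (0.995) and Alpk2 (0.995), and those most like Locus 667 were Ncald (0.979), Hsd11b1 (0.973) and LOC619574 (0.973), each given as a description over 24 libraries of 8 groups.

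**Figure D2:**
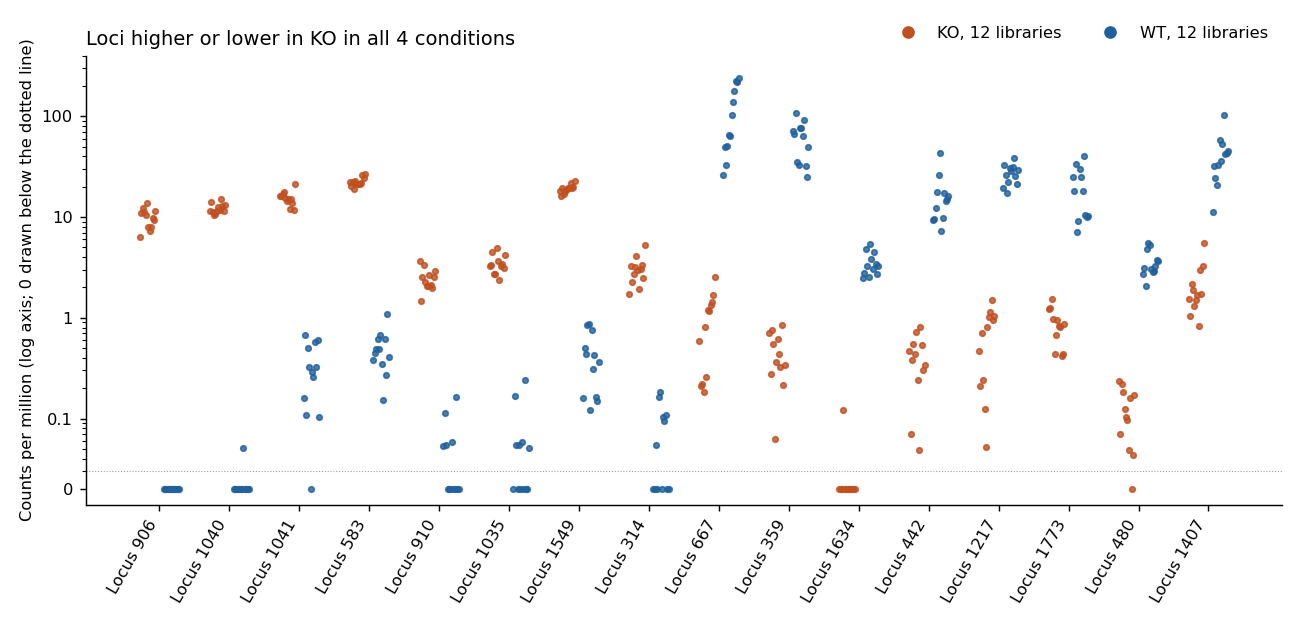
CPM (log axis, 0 drawn below the dotted line) of the 8 loci highest and the 8 lowest in KO relative to WT cells in all 4 conditions, 1 point per library. These were taken from the loci with a mean log2 CPM of at least 0. At Locus 906 the 12 WT libraries lie at 0, and at Locus 667 the 12 KO libraries lie between 0.182 and 2.52 CPM, below all WT libraries.

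The loci beside the microRNA genes differed by smaller amounts. Locus 849 averaged 11.6 ± 2.21 CPM in KO and 8.67 ± 0.865 CPM in WT cells in hypoxia fructose (log2 0.29, adjusted p = 0.221), and 10.04 ± 2.88 in KO and 6.69 ± 1.74 in WT cells in hypoxia glucose (log2 0.64, adjusted p = 0.0108). In normoxia fructose it averaged 15.2 ± 0.799 CPM in KO and 10.5 ± 2.32 in WT cells (log2 0.47, adjusted p = 0.0492), and in normoxia glucose 15.9 ± 2.54 in KO and 5.86 ± 0.771 in WT cells (log2 1.45, adjusted p = 2.5e-06). The normoxia fructose call ended in 12 of the 24 fits that each left out 1 library, and the hypoxia glucose call without KO hypoxia glucose library 3 (adjusted p = 0.114) or WT hypoxia glucose library 1 (0.0816). Locus 1953 was called in normoxia fructose (log2 1.02, adjusted p = 0.0022), hypoxia fructose (0.73) and hypoxia glucose (0.62), and missed the threshold in normoxia glucose (0.37, adjusted p = 0.265). Its hypoxia calls ended in 3 (fructose, up to 0.0625) and 6 (glucose, up to 0.219) of those fits.

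Hypoxia moved the loci mostly upwards. In KO cells 269 were higher and 20 lower in hypoxia with fructose, where 20% of all rows were called (9.71% higher, 10.3% lower). With glucose 185 were higher and 15 lower, where 14% of all rows were called (7.96% higher, 6.07% lower). In WT cells 180 were higher and 29 lower with fructose, where 21.2% of all rows were called (11.3% higher, 9.91% lower). With glucose 112 were higher and 2 lower, where 4.81% were called (3.39% higher, 1.42% lower). Of the called loci 93.1, 92.5, 86.1 and 98.2% were higher in hypoxia in that order, whereas over all rows called the shares were 48.5, 56.8, 53.2 and 70.5%. Over all 1260 loci the median log2 change was 0.32, 0.18, 0.13 and 0.23, and over all rows tested it was -0.0068, -0.0044, -0.012 and -0.016. Annotated lincRNAs, with 280 rows tested, showed 26 higher and 4 lower, 13 and 1, 15 and 6, and 13 and 0. Protein-coding genes showed 1095 higher and 1483 lower, 948 and 864, 1421 and 1412, and 363 and 207. These counts by kind of gene are a description, and the difference between kinds was not tested. In all 4 comparisons, whose libraries are all distinct, 81 loci were higher and 1 lower, against 357 and 78 of all rows. The WT glucose count was 71 when only the groups compared were fitted.

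Of the 81, 29 carry a retroviral or other mobile element hit, 47 no hit and 5 another protein's hit. Of all 1260 loci 97 carry a hit of the first kind and 844 none. The retroviral loci were grouped further by the Swiss-Prot entry that was their best hit. Pol group A holds the 20 loci whose best hit is a first entry named Pol polyprotein, on 16 sequences. Pol group B holds 15 loci with an entry named Probable Pol polyprotein, and Pol group C 9 loci with a second entry named Pol polyprotein. An Env group of 15 loci has its best hit to the envelope entry of a mouse intracisternal A-particle (IAP), and 44 loci have a LINE-1 ORF2 hit. Copies of an element can be near-identical, so reads may be split between copies, and loci of a group are not independent of one another. In Pol group C, Locus 1254, Locus 1255 and Locus 1308 lie on overlapping spans of chromosome 4 and may be 1 element. Opposite strands of overlapping spans also hold Locus 93 and Locus 192, and Locus 1151 and Locus 1197, of the IAP Env group. The same holds for Locus 15 and Locus 127, and Locus 1563 and Locus 1644, with LINE-1 ORF2 hits. All are counted separately below.

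Pol group A rose in hypoxia. Of its 20 loci 18 were called higher in KO fructose, 15 in KO glucose, 14 in WT fructose and 13 in WT glucose, and 0 were called lower in these 4 comparisons. In those comparisons 9.71, 7.96, 11.3 and 3.39% of all rows were called higher. Its median log2 changes were 2.28, 1.87, 1.98 and 1.57. The group had been picked out after this rise was seen, so the counts describe it and test nothing. Pol group B, by contrast, had 0 loci called higher in each of the 4 comparisons, and 2, 2, 0 and 0 called lower. Pol group C had 2 called higher in each and 1 called lower in WT fructose, with medians of 0.26, 0.12, -0.55 and 0.26. The IAP Env group had 1, 0, 1 and 1 called higher and 0, 1, 0 and 0 lower. All 32 loci with a retroviral Env hit, that group among them, had 10, 9, 10 and 9 higher and 0, 1, 0 and 1 lower. The 62 loci with a Pol or Gag-Pol hit, the Pol groups among them, had 29, 24, 24 and 21 higher and 2, 2, 1 and 0 lower. Retroviral loci outside Pol group A were thus called higher too. Of the 44 LINE-1 ORF2 loci 13, 5, 6 and 2 were called higher and 1, 1, 0 and 0 lower.

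Locus 801 is the most abundant locus of Pol group A. It lies at chr18:29521947-29551862 on the plus strand and overlaps the annotated lincRNA AC125248.1, so reads of the overlap cannot be told apart. It had 994, 774 and 960 CPM in KO hypoxia fructose, 780, 685 and 805 in KO hypoxia glucose, 143, 133 and 137 in KO normoxia fructose, and 155, 142 and 158 in KO normoxia glucose. In WT cells it had 1518, 1311 and 1414 CPM in hypoxia fructose, 387, 376 and 441 in hypoxia glucose, 401, 398 and 347 in normoxia fructose, and 116, 119 and 117 in normoxia glucose. Every hypoxia library was thus above the normoxia libraries of the same genotype and sugar. The log2 changes for hypoxia were 2.77 ± 0.0942 in KO fructose, 2.36 ± 0.0928 in KO glucose, 1.99 ± 0.0910 in WT fructose and 1.76 ± 0.0913 in WT glucose, each with an adjusted p of 6.5e-13 or less.

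The other 19 loci of Pol group A were also higher in hypoxia as a sum, by less than Locus 801. They summed to 387 ± 39.3 CPM in KO hypoxia fructose against 129 ± 9.57 in KO normoxia fructose, and to 394 ± 43.6 in KO hypoxia glucose against 164 ± 18.8 in KO normoxia glucose. WT cells had 836 ± 58.5 CPM in hypoxia fructose against 296 ± 37.6 in normoxia fructose, and 560 ± 103 in hypoxia glucose against 230 ± 40.1 in normoxia glucose (SD, n = 3 each). Pol group B summed to 75.4 ± 12.7 CPM in KO hypoxia fructose against 94.2 ± 6.07 in KO normoxia fructose, and to 76.9 ± 12.6 in KO hypoxia glucose against 99.5 ± 14.6 in KO normoxia glucose. In WT cells it summed to 56.5 ± 2.83 CPM in hypoxia fructose against 57.2 ± 13.3 in normoxia fructose, and to 89.1 ± 18.4 in hypoxia glucose against 87.4 ± 14.0 in normoxia glucose.

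**Figure D3:**
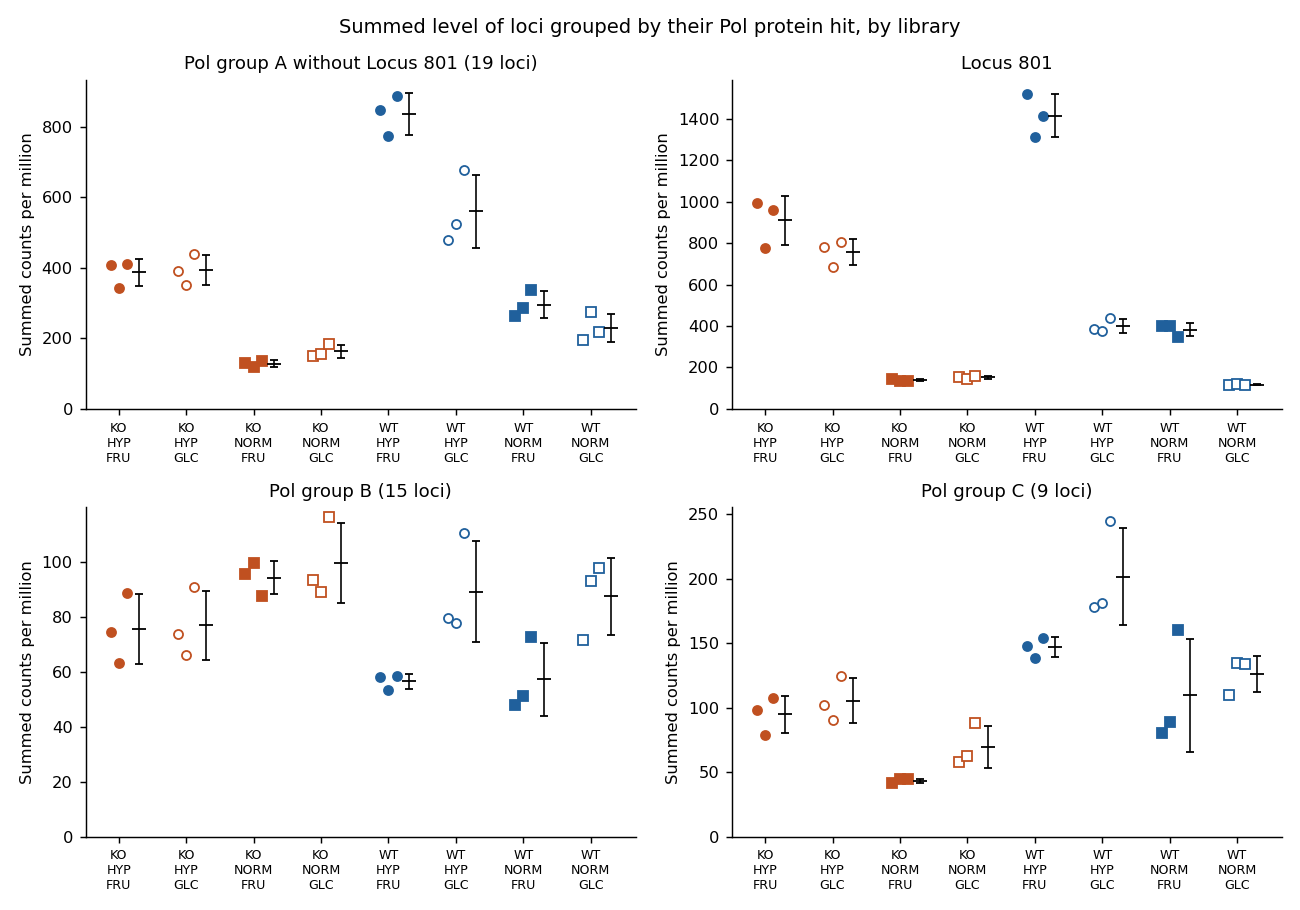
Summed CPM per library (points) with the mean and SD (bars, n = 3) for Pol group A without Locus 801, Locus 801, Pol group B and Pol group C in the 8 groups. Libraries of Pol group A and Locus 801 lie higher in hypoxia than in normoxia of the same genotype and sugar, while those of Pol group B overlap between oxygen conditions in KO and in WT cells.

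Of the 6 loci named for the largest smallest rise over the 4 hypoxia comparisons, 3 belong to Pol group A. That group holds 20 of the 1260 loci and was picked out after its rise was seen. Locus 1327 (chr4:117536751-117545311, minus strand, Pol group A) had 21.4, 20.6 and 21.6 CPM in KO hypoxia fructose against 0.364, 0.374 and 1.14 in KO normoxia fructose, and 14.8, 15.9 and 17.2 in KO hypoxia glucose against 1.41, 0.906 and 1.03 in KO normoxia glucose. In WT cells it had 71.4, 69.8 and 98.5 CPM in hypoxia fructose against 2.53, 3.30 and 2.56 in normoxia fructose, and 22.5, 22.0 and 36.7 in hypoxia glucose against 1.24, 1.69 and 1.20 in normoxia glucose. Its log2 changes were 5.05 ± 0.279, 3.87 ± 0.260, 4.93 ± 0.234 and 4.28 ± 0.248. Locus 1515, of the same group, rose by 5.08 ± 0.187, 4.06 ± 0.174, 3.69 ± 0.166 and 3.42 ± 0.191, and Locus 1356 by 2.72, 2.66, 2.94 and 2.27. Locus 1516, with an Env hit, had 4.14 to 6.07 CPM in KO hypoxia fructose against 0 to 0.260 in KO normoxia fructose. It lies 1426 bases from the start of Msh6, a mismatch repair gene whose change was far smaller, at 0.41, 0.28, 0.36 and 0.14, the last not past the threshold (adjusted p = 0.451).

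Locus 1543 (chr6:105262446-105269909, minus strand), with an Env hit, lies 897 bases ahead of Synj2bp on the same strand. It had 22.8, 24.0 and 20.6 CPM in KO hypoxia fructose against 4.01, 3.11 and 4.94 in KO normoxia fructose, and 122, 89.4 and 112 CPM in WT hypoxia fructose against 13.0, 13.9 and 13.9 in WT normoxia fructose. The log2 change was 2.52 ± 0.139 in KO fructose, 2.30 ± 0.138 in KO glucose, 3.09 ± 0.125 in WT fructose and 2.33 ± 0.123 in WT glucose. Synj2bp, a mitochondrial outer membrane protein gene, changed by 0.03, -0.06, 0.07 and -0.05, none past the threshold. Locus 1109, with no hit, had 0.961 to 2.12 CPM in KO hypoxia fructose and 0 counts in KO normoxia fructose, at least 26.87-fold higher when 3 counts over the 3 normoxia libraries are taken as the limit. Its WT glucose call (log2 2.35) ended without WT hypoxia glucose library 2 (adjusted p = 0.0619) and without WT normoxia glucose library 1 (0.0745) or 3 (0.0558).

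Lower levels in hypoxia were few. Locus 1253, 17405 bases ahead of Sgce and with a hit to the retrotransposon-derived protein PEG10, was the 1 locus lower in all 4 comparisons. It had 5.88, 8.21 and 7.22 CPM in KO hypoxia fructose against 15.9, 16.9 and 16.4 in KO normoxia fructose, with log2 changes of -1.16 ± 0.174 in KO fructose, -1.05 ± 0.174 in KO glucose, -0.62 ± 0.176 in WT fructose and -0.81 ± 0.176 in WT glucose. The WT fructose call ended without WT hypoxia fructose library 3 (adjusted p = 0.0697), and the WT glucose call without WT hypoxia glucose library 3 (0.0501) or WT normoxia glucose library 1 (0.0517). Locus 22, of Pol group B and 20905 bases ahead of Akap12, fell in KO cells (log2 -1.32 and -0.83 with fructose and glucose), while its values of -0.30 and -0.21 in WT cells missed the threshold (adjusted p = 0.378 and 0.628). Locus 1473, with a LINE-1 ORF2 hit, fell in KO cells by 0.71 and 0.68 on the log2 scale. Locus 525 fell by 0.75 in KO fructose and 0.49 in WT fructose, and its KO glucose call (-0.38) ended in 3 fits that left out 1 library, without KO hypoxia glucose library 1 or 2 or KO normoxia glucose library 3 (adjusted p up to 0.201).

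Locus 764 was uneven within groups, at 9.47, 0.436 and 8.22 CPM in KO normoxia fructose and 0.485, 8.37 and 0.546 CPM in WT normoxia glucose. Its calls in KO cells (log2 -4.16 with fructose and -3.70 with glucose) ended in 2 and 4 of the fits that left out a library, with adjusted p up to 0.10.

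**Figure D4:**
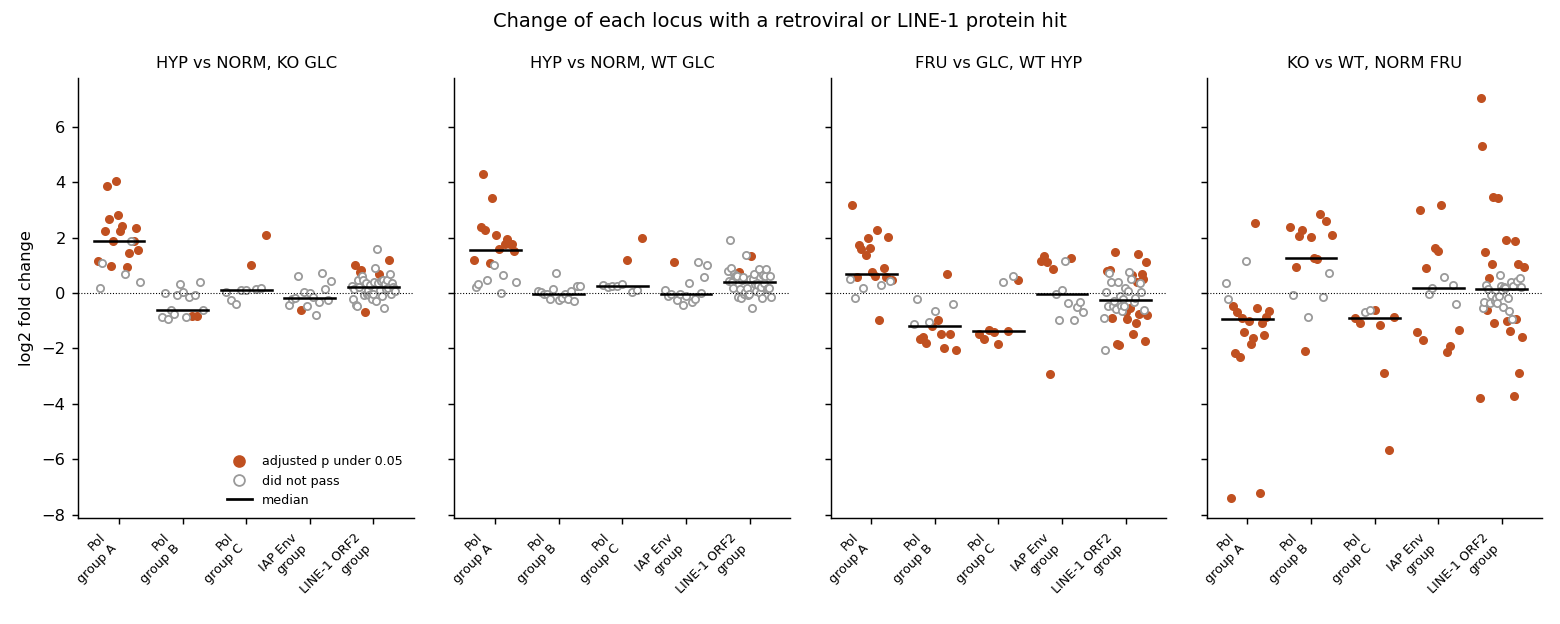
Log2 fold change of each locus with a retroviral Pol, IAP Env or LINE-1 ORF2 hit in 4 comparisons, filled where the adjusted p was under 0.05, with the median as a bar. In hypoxia the points of Pol group A lie mostly above 0 (medians 1.87 in KO glucose and 1.57 in WT glucose), while the medians of Pol group B are -0.61 and -0.028.

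Fructose against glucose moved many loci in WT cells and few in KO cells. In WT hypoxia 445 were called (214 higher and 231 lower with fructose), with 45.5% of all rows (24.6% higher, 20.9% lower). In WT normoxia 326 were called (177 higher, 149 lower), with 37.9% of all rows (19.9% higher, 17.9% lower). In KO hypoxia 42 were called (27 higher, 15 lower), with 5.42% of all rows (2.69% higher, 2.73% lower). In KO normoxia 14 were called (5 higher, 9 lower), with 1.79% of all rows (1.14% higher, 0.65% lower). The shares of the 1260 loci were 35.3, 25.9, 3.33 and 1.11%, again under those of all rows. Their median absolute log2 changes, at 0.56, 0.45, 0.25 and 0.26, were again above the 0.39, 0.33, 0.15 and 0.13 of all rows. The KO counts moved with the tool, since DESeq2 gave 70 in hypoxia and 27 in normoxia. They moved with single libraries too, to 24 without KO hypoxia glucose library 2 and to 5 without KO normoxia glucose library 2. In all 4 comparisons 3 loci were higher with fructose and 2 lower, or 0.238 and 0.159% of the loci against 0.474 and 0.264% of all rows.

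Those 3 were Locus 543, Locus 1055 and Locus 1721. Locus 543 (chr14:59839956-59896943, plus strand, no hit) had 47.9, 48.4 and 39.7 CPM with fructose against 1.17, 1.90 and 1.05 with glucose in WT hypoxia, and 18.3, 15.2 and 11.2 against 1.02, 0.899 and 0.874 in WT normoxia. In KO cells it had 7.62, 10.1 and 8.71 CPM with fructose against 3.54, 2.37 and 2.16 with glucose in hypoxia, and 3.04, 4.67 and 3.38 against 2.06, 1.46 and 1.25 in normoxia. The log2 changes were 5.22 ± 0.265, 4.06 ± 0.269, 1.71 ± 0.235 and 1.21 ± 0.264, and the last call ended without KO normoxia fructose library 2 (adjusted p = 0.0987) or KO normoxia glucose library 2 (0.0658) or 3 (0.106).

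Locus 1055 (chr2:157341501-157342950, minus strand) ends 32 bases from the end of Tiparp, a mono-ADP-ribosyltransferase gene, on the opposite strand. Its log2 changes with fructose were 0.79 ± 0.122 in WT hypoxia, 0.76 ± 0.125 in WT normoxia, 0.80 ± 0.121 in KO hypoxia and 0.89 ± 0.125 in KO normoxia. Tiparp changed by 1.03, 0.76, 0.77 and 0.99 in the same order, each past the threshold, and without strand the reads of such close neighbours cannot be told apart. Locus 1721 rose by 0.74, 0.81, 1.32 and 1.39.

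Locus 1810 (chr9:17327629-17331555, plus strand) lies 8786 bases ahead of Vegfa, the gene of vascular endothelial growth factor A, on the same strand. It had 19.0, 25.0 and 21.1 CPM with fructose against 0.527, 0.667 and 0.907 with glucose in WT hypoxia, and 10.2, 12.1 and 8.52 against 0.485, 0.899 and 0.437 in WT normoxia. In KO cells it had 4.62, 6.04 and 4.52 CPM with fructose against 1.24, 0.775 and 1.83 with glucose in hypoxia, and 2.67, 1.49 and 1.51 against 1.41, 0.906 and 1.20 in normoxia. Its log2 changes were 5.11 ± 0.312, 4.14 ± 0.313, 1.99 ± 0.283 and 0.67 ± 0.306, the last not past the threshold (adjusted p = 0.371). Vegfa changed by 1.29 ± 0.103, 1.58 ± 0.105, 0.48 ± 0.102 and 0.21 ± 0.103, the last again not past it (adjusted p = 0.404). Locus 1284 rose by 3.27, 2.89 and 2.10 in all but KO normoxia, where it changed by 0.51 (adjusted p = 0.714), and Locus 206, near the limit of detection in WT normoxia glucose with 2 counts in 3 libraries, had 38 counts with fructose there.

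Lower with fructose in all 4 comparisons were Locus 1744 and Locus 1526. Locus 1744 (chr8:65410038-65423273, plus strand, no hit) had 24.2, 21.9 and 21.3 CPM with fructose against 54.2, 63.1 and 51.0 with glucose in WT hypoxia, and 17.5, 18.5 and 17.9 against 29.7, 28.4 and 25.5 in KO normoxia. It changed by -1.13 ± 0.107, -1.70 ± 0.115, -0.74 ± 0.106 and -0.64 ± 0.111 in WT hypoxia, WT normoxia, KO hypoxia and KO normoxia. Within each of these the sugars did not overlap, at a locus chosen for its changes in all 4 comparisons. Locus 1526, which ends 77 bases from the end of Lbh, a transcription cofactor gene, on the opposite strand, changed by -0.53, -0.60, -0.38 and -0.39. Lbh changed by -0.46, -0.78, -0.33 and -0.59, with the KO hypoxia value not past the threshold (adjusted p = 0.111). The KO hypoxia and KO normoxia calls of Locus 1526 ended in 3 and 5 of the fits that left out a library.

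The most abundant locus, Locus 1655, followed sugar in WT cells. It averaged 1429 ± 60.2 CPM with fructose and 838 ± 88.2 with glucose in WT hypoxia, and 1307 ± 80.5 with fructose and 917 ± 64.3 with glucose in WT normoxia. In KO cells it averaged 1155 ± 174 with fructose and 1182 ± 57.1 with glucose in hypoxia, and 1165 ± 27.9 with fructose and 1227 ± 44.3 with glucose in normoxia (SD, n = 3 each). The WT changes passed (log2 0.95 ± 0.10 and 0.58 ± 0.0998), the KO changes did not (-0.03 and -0.08, adjusted p = 0.925 and 0.849), and the difference between genotypes passed in both oxygen conditions (-0.99 ± 0.141 and -0.66 ± 0.141).

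The retroviral groups had these calls with fructose in WT cells, where 24.6% of all rows were higher and 20.9% lower in hypoxia, and 19.9% higher and 17.9% lower in normoxia. A difference between these groups was not tested. Pol group A had 14 loci higher and 1 lower in WT hypoxia, and 10 higher and 0 lower in WT normoxia, with median log2 changes of 0.68 and 0.38. Pol group B had 1 higher and 9 lower, and 1 higher and 11 lower, with medians of -1.18 and -1.41. Pol group C had 1 higher and 6 lower, and 1 higher and 3 lower. The IAP Env group had 5 higher and 1 lower, and 2 higher and 1 lower, with medians of -0.044 and 0.18. In KO hypoxia and KO normoxia 0 and 1 of the 20 loci of Pol group A, and 0 and 0 of the 15 of Pol group B, were called. Against WT, KO cells with fructose had 15 loci of Pol group A lower and 1 higher in hypoxia and 16 lower and 1 higher in normoxia. Pol group B had 8 higher and 2 lower in hypoxia, and 10 higher and 1 lower in normoxia. Of all rows 25.7% were higher and 28.8% lower in hypoxia, and 25.7% higher and 28% lower in normoxia. With glucose Pol group A had 8 higher and 7 lower in KO in hypoxia and 5 higher and 7 lower in normoxia, and Pol group B 2 higher and 4 lower in hypoxia and 3 higher and 2 lower in normoxia. Of all rows 24.3% were higher and 24.1% lower with glucose in hypoxia, and 22.7% higher and 23.7% lower in normoxia. These KO comparisons and the fructose comparisons share the WT fructose libraries. The 8 became 5 without WT hypoxia fructose library 1. In Pol group C, its overlapping loci counted separately, 4, 8, 7 and 7 of the 9 loci were lower in KO in hypoxia fructose, hypoxia glucose, normoxia fructose and normoxia glucose, and 0 higher. Its normoxia glucose count fell to 3 without KO library 1 or WT library 3 and to 4 without KO library 2 or WT library 2, and its normoxia fructose count to 4 without WT library 3.

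Whether fructose acted differently in the genotypes was tested as the change in KO minus that in WT. It passed at 234 loci in hypoxia (124 positive, 110 negative), with 25.6% of all rows (10.7% positive, 14.9% negative). In normoxia it passed at 152 (51 positive, 101 negative), with 19.1% of all rows (9.15% positive, 9.99% negative). In Pol group A the difference was negative and past the threshold at 11 loci in hypoxia and at 8 in normoxia, and positive at 1 and 0. In Pol group B it was positive at 7 and 6 and negative at 1 and 1. Locus 801 had differences of -1.74 ± 0.125 in hypoxia and -1.92 ± 0.127 in normoxia. Locus 748, 10707 bases ahead of Prpf18, a splicing factor gene, had 3.54, 2.13 and 3.38 CPM with fructose against 2.78, 2.66 and 3.99 with glucose in KO hypoxia, where WT cells had 0.380, 0.398 and 0.206 CPM with fructose against 2.87, 2.97 and 3.15 with glucose. Its differences were 2.92 ± 0.402 in hypoxia and 2.82 ± 0.379 in normoxia.

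Fewer loci passed the test of whether hypoxia acted differently in the genotypes. The change in KO minus that in WT passed at 28 loci with fructose (25 positive, 3 negative), with 2.11% of all rows (1.04% positive, 1.07% negative). With glucose it passed at 1, with 0.183% of all rows (0.169% positive, 0.0135% negative). With fructose the count was 43 in DESeq2, 17 when only the groups compared were fitted, and 13 to 31 with 1 library left out, with the lowest without KO normoxia fructose library 1. The 1 locus with glucose was Locus 801 (0.60 ± 0.126, adjusted p = 0.0488), a call that ended in 18 of the 24 fits that left out a library. With fructose its difference was 0.78 ± 0.125 (adjusted p = 0.0015).

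Loci close to a gene tended to change with it. For KO against WT, the log2 changes of a locus and its nearest tested gene had Pearson's r of 0.75 to 0.79 over the 4 conditions across 110 divergent pairs within 1 kb (Spearman's rho 0.55 to 0.63). Across 381 pairs that overlap or lie within 5 kb r was 0.55 to 0.58, across 328 pairs at 5 to 50 kb 0.28 to 0.41, and across 77 pairs farther apart -0.13 to 0.036. These are descriptions across pairs that share libraries, and close pairs can share reads. Among pairs with a mean log2 CPM of at least 1 the divergent r was lower, at 0.50 to 0.63 (58 pairs) and that within 5 kb 0.30 to 0.36. For hypoxia against normoxia r across the 110 divergent pairs was 0.51 in KO fructose, 0.62 in KO glucose, 0.39 in WT fructose and 0.36 in WT glucose. With a mean log2 CPM of at least 1 it was higher, at 0.68, 0.66, 0.70 and 0.72 (58 pairs).

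In numbers of calls for KO against WT in normoxia glucose, 22.7% of all rows were higher and 23.7% lower. Of the divergent loci 15 were higher and 16 lower. Their nearest gene was called the same way at 7 and 10 of these and the other way at 1 and 1. Among the 77 pairs farther than 50 kb apart 16 loci were higher and 15 lower, and the nearest gene was called the same way at 2 and 2 and the other way at 5 and 5.

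**Figure D5:**
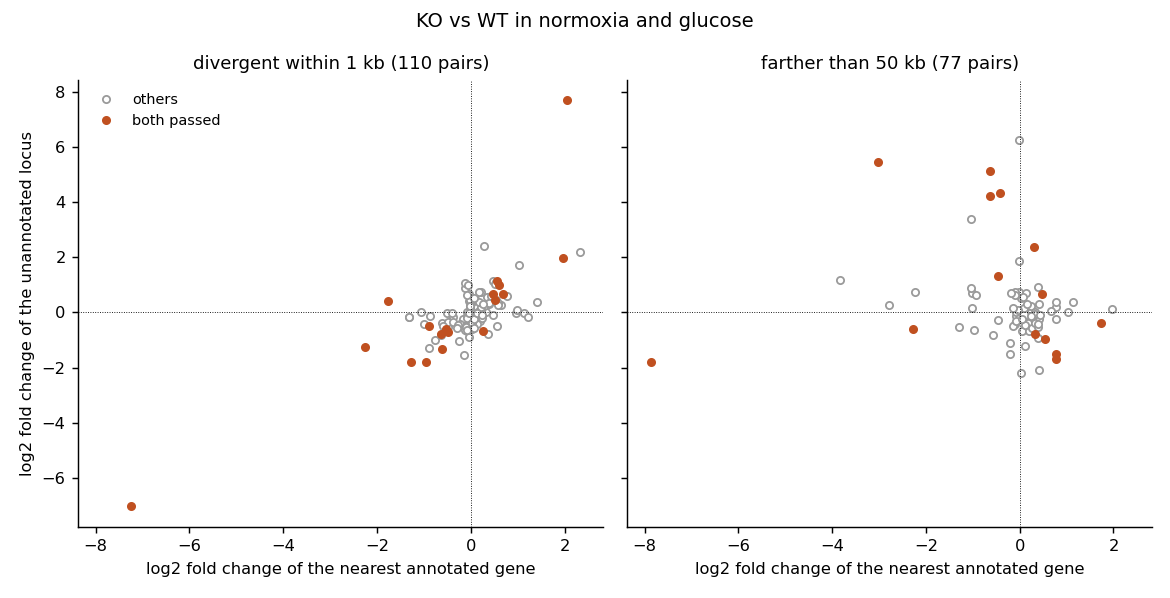
Log2 fold change of each locus (KO against WT in normoxia and glucose) against that of its nearest annotated gene, for 110 divergent pairs within 1 kb and for 77 pairs farther than 50 kb apart, filled where both passed the threshold. Divergent pairs lie along a rising line (r = 0.75), and distant pairs do not (r = -0.13).

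Of the 124 divergent loci 32 were higher in hypoxia in at least 1 comparison and 5 in all 4 (of all 1260 loci these were 332 and 81). Locus 947 starts 9 bases from the start of Hp, the haptoglobin gene. It averaged 5.78 ± 2.08 CPM in KO hypoxia fructose against 0.957 ± 0.254 in KO normoxia fructose and 8.88 ± 0.895 in WT hypoxia fructose against 1.36 ± 0.454 in WT normoxia fructose. Its log2 changes were 2.62, 1.57, 2.81 and 2.93 in KO fructose, KO glucose, WT fructose and WT glucose, and those of Hp 1.71, 1.65, 2.75 and 1.68, all past the threshold. Locus 1146, 9 bases from Ccbl1 and with a Pol hit, averaged 118 ± 18.8 CPM in KO hypoxia fructose against 15.2 ± 1.63 in KO normoxia fructose. It changed by 3.0 ± 0.137, 2.26 ± 0.132, 3.15 ± 0.137 and 2.12 ± 0.133, and Ccbl1 by 1.57, 1.43, 1.24 and 0.69, all past the threshold. By genotype this pair differed: Ccbl1 was lower in KO in all 4 conditions (log2 -0.92, -1.03, -1.25 and -1.77 in hypoxia fructose, hypoxia glucose, normoxia fructose and normoxia glucose), and Locus 1146 was higher in KO with glucose (0.57 in hypoxia, 0.43 in normoxia).

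For the other three the gene passed in fewer of the hypoxia comparisons than the locus. Locus 19, 402 bases from Irx2, changed by 1.58, 0.89, 1.14 and 0.75 in hypoxia, whereas Irx2 passed in WT fructose only (0.25, 0.17, 0.40 and 0.39). Its WT glucose call ended without WT hypoxia glucose library 3 (adjusted p = 0.0670) or WT normoxia glucose library 1 (0.0838) or 2 (0.0918). With fructose against glucose both rose in WT cells (Locus 19 by 1.47 in hypoxia and 1.08 in normoxia, Irx2 by 1.45 and 1.43), and neither passed in KO cells. Locus 965, 573 bases from Atg10, changed by 0.86, 0.86, 1.30 and 1.05 in hypoxia while Atg10 changed by 0.13, 0.06, -0.18 and 0.41 with none past the threshold. The KO glucose call ended without KO normoxia glucose library 3 (adjusted p = 0.0538). With fructose Locus 965 rose in WT cells, to 12.4 ± 0.523 CPM against 2.83 ± 0.352 with glucose in hypoxia and to 5.39 ± 1.48 against 1.36 ± 0.247 in normoxia. Atg10 fell with fructose in WT hypoxia, to 2.99 ± 0.185 CPM against 5.09 ± 0.912 with glucose (log2 -0.58), and had 3.65 ± 0.739 against 3.82 ± 1.03 CPM in WT normoxia. Locus 1635, 32 bases from the lincRNA AABR07058804.1, changed by 1.38, 1.12, 1.60 and 0.85 in hypoxia, and AABR07058804.1, at 0.580 to 0.941 CPM on average in every group, passed in none.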

How the data were processed

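Total RNA of a rat PMVEC line was sequenced in 24 libraries, 3 in each of 8 groups, and a service company processed the RNA and made the libraries, per the labels. The authors deposited raw read counts per row, with a name, position, length and protein hit for each row. HISAT2, DESeq2 and the build Rnor_6.0 are named in the submitters' processing notes. The counting program, its use of strand and the way unannotated loci were assembled are not stated in any source used here. A column whose replicate is written "-3" was taken as replicate 3, and 5 emptied lines were skipped.

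Rows were kept by filterByExpr (minimum count 10, minimum total 15), leaving 14770. All 24 libraries were fitted together in edgeR 4.0.16 (R 4.3.3, limma 3.58.1) with TMM scaling, robust quasi-likelihood dispersion and 16 residual degrees of freedom. Benjamini-Hochberg adjusted p under 0.05 was called. A standard error is the log2 change divided by the root of F, and levels are CPM of the library total. Library totals of 14344010 to 23028807 counts set the precision, and intervals and floors cover counting error only. The fit was also run on simulated counts with the same dispersion for every row, which does not cover loci that vary more than that. Comparisons that share a group share its libraries.

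Positions were compared within the table. Sequences are from RefSeq (GRCr8), since no Rnor_6.0 genome was used here. Named loci were those with the highest level, those with the largest smallest change in 1 direction over all 4 comparisons of a factor (for fructose and for lower in hypoxia, filled up by the number of comparisons passed), and those with the largest tested differences between genotypes. The largest smallest changes were ranked among the 1064 loci with a mean log2 CPM of at least 0. Divergent and microRNA neighbours were named after positions were known. Protein hit groups were set from the annotation. The loci, lists and groups were chosen with earlier results of these data known. Alternatives were DESeq2 1.42.0, its size factors, no filter, a replicate block, totals of annotated rows, only the groups compared, each library left out, a minimum total of 480, other distance limits, and pairs above a mean level.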

Additional observations from a re-analysis of the deposited data

Results flagged for a closer look

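Genotypes differed in their response, by the tested interaction (change in KO minus change in WT, edgeR's quasi-likelihood test), at the loci below, given on the log2 scale with SE.

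For fructose in normoxia the difference was -5.41 ± 1.17 at Locus 1864, -5.20 ± 1.42 at Locus 656, -5.09 ± 0.834 at Locus 522, 6.05 ± 1.72 at Locus 1894, 2.82 ± 0.379 at Locus 748 and 2.44 ± 0.772 at Locus 789. For fructose in hypoxia it was -4.58 ± 0.785 at Locus 563, -4.05 ± 0.832 at Locus 1136, -3.91 ± 0.925 at Locus 656, 6.81 ± 1.12 at Locus 273, 2.99 ± 0.436 at Locus 1666 and 2.92 ± 0.402 at Locus 748. The WT normoxia glucose libraries had 0 counts of Locus 1864 and Locus 656, and the KO hypoxia glucose libraries 0 of Locus 273, so those fitted values depend on the prior count. Other values rest on few counts in a group. Locus 522 had 1 count in WT normoxia glucose, and Locus 563 and Locus 656 had 4 and 2 in WT hypoxia glucose. Locus 273 had 3 in KO normoxia fructose, which enters its difference for hypoxia with fructose below.

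For hypoxia with glucose it was 0.60 ± 0.126 at Locus 801. For hypoxia with fructose it was -1.31 ± 0.312 at Locus 1676, -0.72 ± 0.147 at Locus 195, -0.53 ± 0.138 at Locus 823, 3.68 ± 0.813 at Locus 273, 2.83 ± 0.534 at Locus 1217 and 2.73 ± 0.694 at Locus 872. The calls at Locus 823 ended in 18, at Locus 872 in 8, at Locus 1676 in 6, at Locus 789 in 5, and at Locus 1894 and Locus 273 (hypoxia with fructose) in 2 of the 24 fits that each left out 1 library.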

How the results depend on the processing

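Of 202 calls at named loci 170 held in all 30 alternatives, 32 were lost in at least 1, and 0 turned round. Leaving out a library ended 30 of them, fitting only the groups compared 12, DESeq2 size factors 2 and no filter 2, while DESeq2, the replicate block and the totals of annotated rows ended 0.

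The number of loci called moved most where few were called. DESeq2 gave 27 for fructose in KO normoxia, 70 in KO hypoxia, and 2 and 43 for the genotype difference in the response to hypoxia with glucose and with fructose. DESeq2 size factors gave 0 for that difference with glucose. With the replicate block the same 4 counts were 33, 82, 4 and 62. The deviations of same-numbered libraries from their group means correlated at -0.055 to 0.285, with 77 of 84 pairs positive and 30 over 0.1, and those of different numbers at -0.234 to 0.148. As a hint from the data, the best match in another group had the library's own number in 124 of 168 tries, each with 3 libraries to choose from. It did so in every group for 9 of 24 libraries. All 3 pairs passed 0.1 in 1 of the 12 comparisons, fructose in WT normoxia, where the block gave 379 calls against 326. In the other 11 comparisons the libraries were taken to share only a number. No source used here says whether same-numbered libraries were paired, and the main counts of all 12 comparisons used no block. Fitting only the groups compared gave 71 for hypoxia in WT glucose and 17 for the genotype difference in hypoxia with fructose. With 1 library left out the counts ranged from 131 to 209 for hypoxia in KO glucose, 5 to 21 and 24 to 50 for fructose in KO normoxia and KO hypoxia, and 0 to 2 and 13 to 31 for the genotype difference in hypoxia with glucose and fructose.

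With a limit of 1 kb in place of 5 kb, 256 loci lay near a gene. Among pairs with a mean log2 CPM of at least 1, r within 5 kb was 0.327, 0.302, 0.358 and 0.354 for KO against WT in hypoxia fructose, hypoxia glucose, normoxia fructose and normoxia glucose, and 0.390 and 0.357 for hypoxia in WT fructose and WT glucose. Across divergent pairs it was 0.604, 0.497, 0.547 and 0.626 for KO against WT, and 0.677, 0.703 and 0.718 for hypoxia in KO fructose, WT fructose and WT glucose. Without Locus 801, chosen after seeing the data, the share of counts was 1.48% in KO hypoxia fructose, 1.51% in KO hypoxia glucose and 1.44% in WT hypoxia fructose. Some changes that had not passed altered their sign with 1 library left out: Locus 1473 for hypoxia in WT glucose (-0.43 to 0.0038), Locus 206 for fructose in KO normoxia (-0.15 to 0.25), and Locus 764 for hypoxia in WT fructose (-0.59 to 0.44) and WT glucose (-2.80 to 0.86). The cause was not tested. Loci with few counts are limited by depth.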
